A study of Mus musculus with 6 samples.

Results

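The nuclear-encoded genes of the mitochondrial respiratory chain and ATP synthase were described across the cell types of CT26 tumors. Members were all genes of a set form of symbol with 100 or more unique molecular identifiers (UMIs) in the table. The symbol had to start with Nduf, Uqcr, Cox4 to Cox8 or Atp5, or to be Sdha, Sdhb, Sdhc or Sdhd in full. The rule took 89 of the 31053 genes in the table, of which 15358 had 100 or more UMIs. It matched 93 symbols, and Cox7b2, Cox8b and Cox8c with 1 UMI each and Atp5o with 5 UMIs were left out. A second entry under the last symbol, Atp5o.1, met the minimum and is among the 89 members. Complex I gave 36 members and 8 assembly factors, complex II gave 4, complex III gave 8, complex IV gave 17, and complex V gave 15 and its factor B, Atp5s. The rule itself uses only the symbols and a minimum count.

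CT26, a mouse colorectal carcinoma line, was grown under the skin of young wild-type female Balb/c mice, tumors were taken on the fifth day after treatment, and leukocytes were enriched on CD45 beads before droplet-based single-cell mRNA-seq. The sample labels describe 6 samples in 3 groups of 2, which received vehicle, a low dose or a high dose of a bispecific antibody that blocks PD-1 and carries GITR-L. The high dose was 30 mg/kg, and the low dose stands as 30 mg/kg in the treatment label and as 10 mg/kg in the treatment protocol. The paper describes the single-cell experiment with another dose and an isotype control, and which holds for these libraries is not settled here. The table holds 4 libraries named M1, M2, M5 and M6, and no label ties any of them to a treatment. No value was therefore compared between treatments, the libraries were not treated as replicates of a condition, and no test was run. Values are given for the pooled cells of a cell type label, for each library or for both, and many are given pooled only. Values by library are always in the order M1, M2, M5, M6.

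Mitochondria make most of the ATP of a resting cell by passing electrons from NADH and succinate through complexes I, II, III and IV to oxygen, and complex V uses the resulting proton gradient to make ATP. Nearly all subunits are encoded in the nucleus and imported, whereas 13 core subunits of complexes I, III, IV and V are encoded by the mitochondrial DNA, whose genes carry the prefix mt-. Activated T cells and dividing cells are known to raise both glycolysis and mitochondrial mass, and several nuclear subunits exist as tissue-restricted isoforms, among them those of Cox4, Cox6a, Cox6b, Cox7a and Cox8 and the Ndufa4 paralog Ndufa4l2.

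The libraries held 7160 to 10294 cells and 158337797 to 315577167 UMIs, with median depths of 11399 to 21800.5 UMIs per cell, and 33961 cells in all. Libraries shared 111 cell barcodes, and leaving those cells out changed no direction or count between the labels. Of the 12 cell type labels, which the authors assigned by correlation with ImmGen profiles, 8 held 500 cells or more. They were Stroma (15687 cells), ILC (4628), NK cells (4398), T cell EFF (3633), Myeloid (2680), T cell MEM (1179), NKT (781) and DC (556). Levels are in CPM, for which the summed UMIs of a gene are divided by the total of its label or of its label in a library, and shares are percent of that total. These are 3′ counts of molecules, so transcript length does not enter. Most labels carried their markers, such as Cd8a at 597 CPM in T cell EFF, Ncr1 at 450 CPM in NK cells and Lyz2 at 6633 CPM in Myeloid. Cells labelled Stroma had Col1a2 at 681 CPM and Ptprc, which encodes CD45, at 7.47 CPM against 463 to 1240 CPM in the other large labels. When 2000 UMIs were drawn from every cell, only 1756 of the 15687 Stroma cells kept a UMI of the collagen gene Col3a1. How many cells of this label are CT26 tumor cells was not tested. Cells labelled ILC had the NK cell gene Ncr1 at 422 CPM, and cells labelled NKT had the hemoglobin gene Hbb-bs at 1068 CPM, against 0.295 to 5.31 CPM in the other large labels. Since the labels were set on whole profiles, members included, differences between labels are given as descriptions.

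The promoters of the members were read first, since many respiratory chain genes are known targets of the transcription factors NRF1, GABPA of the ETS family, and YY1. A RefSeq window of 250 bases before to 50 bases after the start was at hand for 73 of the 89 members. In these, the letters GCGCATGC (NRF1) stood in 12 members (16.4%) against 3.05% of 27025 genes with a window, CCGGAAG (ETS/GABPA) in 18 (24.7%) against 9.93%, and AAGATGGCG (YY1) in 8 (11%) against 1.64%. Each was searched on both strands, and GCGCATGC overlaps its own reverse complement. At least 1 of the 3 was present in 31 members (42.5%) against 13.6% of all genes with a window. The YY1 letters stood 10 to 35 bases after the start in Ndufc1, Atp5j2, Ndufs7, Ndufa9, Ndufs6, Ndufs4 and Ndufaf8. Only in a window of Atp5j did they stand before it, by 88 bases. All these YY1 matches read along the strand of the gene, and their places in other genes are not given. Members needed 100 or more UMIs, whereas the genes with a window were not limited by their UMIs, so the sets also differ in expression. Such a match is a description of letters and not a binding site, and a window without a match says only that these letters are not in it. The following stretches of 70 bases, from RefSeq on GRCm38.p6, lie before the annotated gene and run 5′ to 3′ on its strand, with a motif in capitals. Cox5b (chr1:36691379-36691448, plus strand) is shown because its level had the highest correlation with the other members. Uqcrh (chr4:116075072-116075141, minus strand, ETS/GABPA) is shown because its correlation with them was the lowest and negative. Ndufa6 (chr15:82354336-82354405, minus strand, NRF1) is shown for its high level in DC, and Cox6a1 (chr5:115349080-115349149, minus strand, overlapping NRF1 on both strands) as the widely expressed counterpart of Cox6a2, for which no window was at hand.
Cox5b: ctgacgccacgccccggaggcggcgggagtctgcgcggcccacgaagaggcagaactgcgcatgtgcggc
Uqcrh: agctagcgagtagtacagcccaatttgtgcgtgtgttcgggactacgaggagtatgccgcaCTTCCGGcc
Ndufa6: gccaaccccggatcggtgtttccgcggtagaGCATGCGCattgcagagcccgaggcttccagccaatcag
Cox6a1: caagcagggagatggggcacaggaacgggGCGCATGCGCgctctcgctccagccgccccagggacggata

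Summed over the 89 members, the nuclear genes took 1.86% of all UMIs, and the 13 mt- genes took 5.20%. By library the nuclear share was 1.94%, 1.81%, 1.88% and 1.78%, and the mt- share was 5.45%, 5.35%, 4.83% and 4.88%. Cells labelled T cell EFF had the highest nuclear share of the 8 large labels in all 4 libraries as a share of total UMIs. It was 1.96% pooled and 1.99%, 1.90%, 2.02% and 1.90% by library. However, pooled Stroma stood above T cell EFF with TMM factors, and both Stroma and DC stood above it with DESeq2 size factors. By the median over cells, DC stood above T cell EFF in M2 (1.88% against 1.82%) and M6 (1.84% against 1.79%). Cells labelled NKT had the lowest pooled share, 1.62%, with 1.74%, 1.55%, 1.62% and 1.60% by library. They were lowest in M2, M5 and M6, and T cell MEM was lowest in M1, but by the median over cells Myeloid was lowest in M6 and NKT in M1. NKT cells were also the shallowest of the large labels, with a median of 4287 UMIs, and carried the hemoglobin transcripts given above, and the part of neither in the low share was tested.

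Between these ends the pooled nuclear share was 1.87% in Stroma, 1.86% in DC, 1.85% in ILC, 1.82% in NK cells, 1.74% in T cell MEM and 1.73% in Myeloid. Of the neighbours in this order, T cell EFF over Stroma, ILC over NK cells, NK cells over T cell MEM and Myeloid over NKT kept their order in 4 of 4 libraries, of which T cell EFF over Stroma and ILC over NK cells turned with TMM or DESeq2 factors. By the median over cells T cell MEM stood above NK cells in M5 (1.75% against 1.72%) and M6 (1.67% against 1.65%), and NKT above Myeloid in M6 (1.47% against 1.40%), as it also did without ribosomal UMIs (1.98% against 1.92%). DC stood over ILC in 3 libraries, T cell MEM over Myeloid in 2 and Stroma over DC in 1, so these neighbours did not differ beyond the spread over libraries. Within a library the labels spanned 0.27 to 0.40 percentage points, and within a label the libraries spanned 0.115 to 0.195 points. The 4 labels with under 500 cells ranged from 1.35% in B cells (124 cells) to 2.36% in Stem cells (37 cells).

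The mt- genes ordered the labels differently. Their pooled share was highest in Stroma (5.39%) and lowest in ILC (4.17%), and as a share of total UMIs ILC was lowest in all 4 libraries, at 3.99% to 4.33%. By the median over cells NK cells were lower than ILC in M1 (3.62% against 3.68%) and DC in M6 (3.68% against 3.74%), and the ILC to NK cell ratio turned without cells over 10% mt- UMIs. Stroma was first in M1 and M5, NKT in M2 (5.91% against 5.45% in Stroma) and Myeloid in M6 (5.20% against 5.02%), whereas by the median over cells Stroma was first in each library. T cell EFF, first by the nuclear share, had an mt- share of 4.80%, and NKT, last by the nuclear share, had 5.17%. Over the 32 combinations of label and library the correlation of both shares was -0.31, where the points share libraries, depth and the total UMIs that both are divided by. Expressed against each other, ILC had 0.443 nuclear UMIs per mt- UMI, T cell EFF 0.409, NK cells 0.405, DC 0.398, T cell MEM 0.374, Stroma 0.347, Myeloid 0.329 and NKT 0.314. By complex, ILC and Stroma differed most for complex III, whose only mt- subunit is mt-Cytb, with 0.469 nuclear UMIs per mt- UMI in ILC and 0.255 in Stroma.

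**Figure D1:**
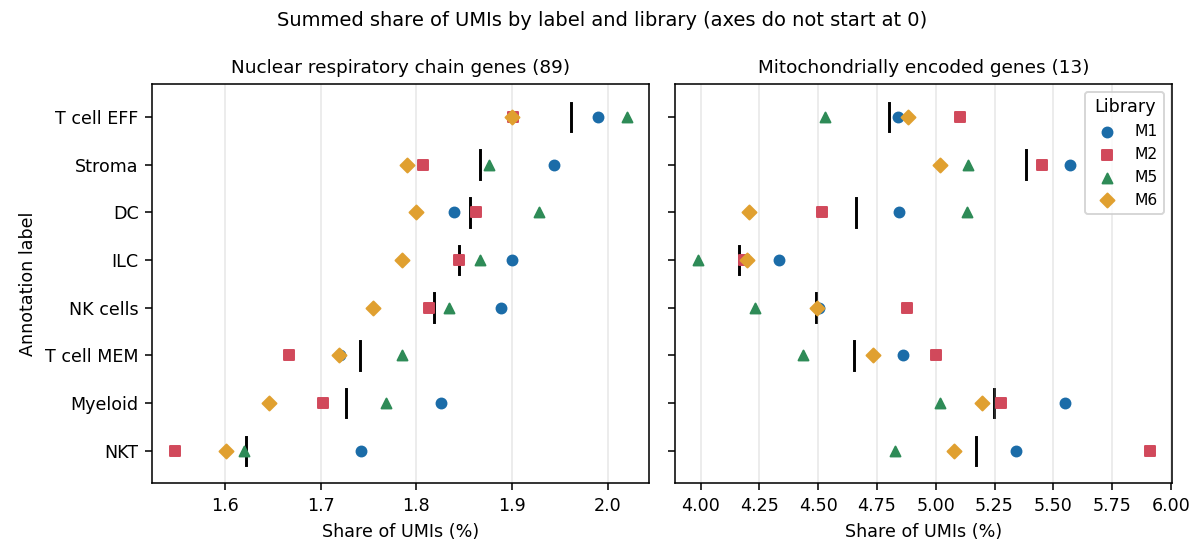
Share of all UMIs, in percent, taken by the 89 nuclear members and by the 13 mt- genes, for the 8 labels with 500 or more cells, with a point for each of the 4 libraries and a bar for the pooled cells, on axes that do not start at 0. As a share of total UMIs, T cell EFF is highest in all 4 libraries by the nuclear genes, while ILC has the lowest mt- share in all 4. By the pooled nuclear genes, TMM factors put Stroma above T cell EFF, and DESeq2 factors put Stroma and DC above it. By the median over cells, the mt- share of NK cells is below that of ILC in M1, and that of DC is in M6.

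Cytochrome b, mt-Cytb, was 6633 CPM in Stroma (7147, 6676, 6058 and 5788) and 3550 CPM in ILC (4062, 3431, 3288 and 3483), and these ranges did not overlap. The oxidase core subunit mt-Co1 went another way, with 9257 CPM in Myeloid (8110, 9097, 9585 and 9865) against 6803 in NK cells (6077, 7148, 6745 and 7129) and 6916 in Stroma. The highest library of NK cells was below the lowest of Myeloid. The complex V subunit mt-Atp6 was 13416 CPM in Stroma and 9737 in ILC. Over all 13 mt- genes the highest label exceeded the lowest by a median of 1.38-fold and by 1.87-fold at most.

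Of the remaining mt- genes, mt-Nd2, mt-Nd1, mt-Nd4, mt-Nd4l and mt-Atp8 were highest in Stroma, mt-Co2 in Myeloid, mt-Co3, mt-Nd5 and mt-Nd6 in NKT, and mt-Nd3 in T cell EFF. ILC was lowest for mt-Nd2 (1779 CPM against 2799 in Stroma), mt-Co2 (7520 against 9897 in Myeloid) and mt-Co3 (7482 against 9669 in NKT).

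Most single members were spread evenly over the labels. Among the 82 members with 10000 or more UMIs, the level in the highest label exceeded that in the lowest by a median of 1.48-fold (range 1.16 to 4.23), computed with 1 CPM added. The spread stayed below 1.5-fold for 42 members (51.2%) and reached 2-fold for 7 (8.54%). Among all 7608 genes with 10000 or more UMIs the median was 2.33-fold, 13.2% stayed below 1.5-fold and 60.8% reached 2-fold. Above that minimum members and all genes were not matched for level, and the part of counting error in the wider spread was not tested. By complex, the medians were 1.46 for complex I, 1.47 for complex II, 1.62 for complex III, 1.44 for complex IV and 1.43 for complex V, against 1.91 for the complex I assembly factors. By pooled level, Stroma was the highest of the 8 large labels for 31 of the 89 members and the lowest for 24, T cell EFF was the highest for 23 and the lowest for 0, DC was the highest for 14, and NKT was the lowest for 44. Of all 15358 genes, Stroma was the highest for 32% and the lowest for 30.1%, T cell EFF for 6.95% and 2.98%, DC was the highest for 12% and NKT the lowest for 15.5%. The plot of subunits by complex shows both the narrow spread and the few members that stand out.

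**Figure D2:**
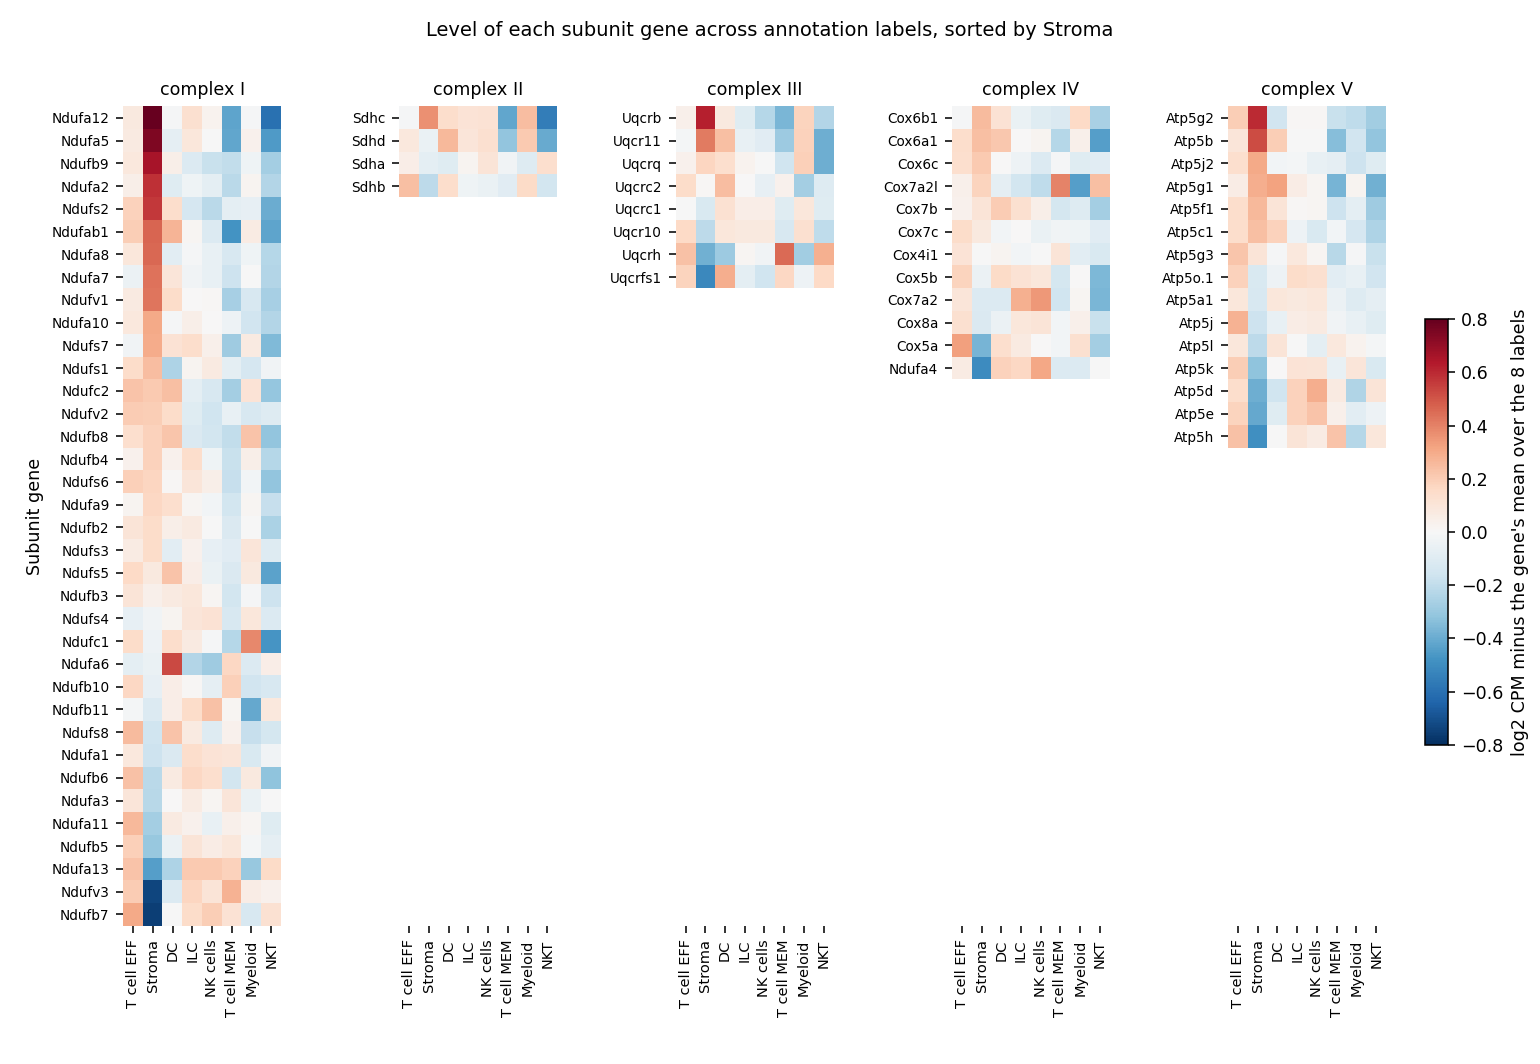
Heat map of the subunits other than the tissue-restricted isoforms, grouped by complex (vertical) in the 8 large labels (horizontal), coloured by log2 CPM minus the mean of that gene over the 8 labels. Most rows vary little, and Ndufa12, Ndufb7, Uqcrh and Uqcrb show the contrast between Stroma and lymphocyte labels.

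Complex I, the NADH dehydrogenase, took 0.535% of UMIs in Stroma, 0.526% in T cell EFF and 0.432% in NKT. Of its 36 subunits, Stroma had the highest level for 16 and the lowest for 7, and NKT had the lowest for 21, to be read against the same shares of all genes. The accessory subunit Ndufa12 (chr10:94198720-94221443, plus strand) was at 264, 239, 265 and 249 CPM in Stroma, 174, 139, 153 and 144 in T cell EFF and 125, 117, 84.7 and 82.9 in NKT. Ndufb7 (chr8:83566671-83571626, plus strand), a subunit of the membrane arm, was at 121, 111, 132 and 111 CPM in Stroma and 242, 226, 262 and 237 in T cell EFF. Both genes separated Stroma from T cell EFF without overlap of the libraries, in opposite directions. Their ratio, which does not depend on the scaling of a label, was 2.15 in Stroma (2.01 to 2.24 over libraries) and 0.444 to 0.795 in the other large labels.

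Ndufb9, another membrane arm subunit, was at 445, 405, 423 and 427 CPM in Stroma and 226, 232, 229 and 216 in NKT. The accessory subunit Ndufv3 was lowest in Stroma, at 69.8, 70.9, 71.6 and 68.4 CPM, and highest in T cell MEM, at 142, 141, 143 and 139. These ranges did not overlap for either gene. Ndufa6, a member of the LYR protein family whose promoter stretch is printed above, was at 224, 298, 287 and 264 CPM in DC, against 158, 164, 146 and 151 in NK cells and 174, 178, 180 and 165 in Myeloid. Every DC library was above every NK cell and Myeloid library. At the other extreme, Ndufs4 differed by 1.18-fold between its highest label, NK cells (134 CPM), and its lowest, T cell MEM (114 CPM).

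The assembly factors, which help build complex I without staying in it, had lower levels and wider spread. Ndufaf2 (chr13:108002715-108158623, minus strand), which binds a late assembly intermediate, was at 42.8, 37.3, 41.6 and 39.5 CPM in Stroma and 22.6, 15.9, 17.6 and 18.2 in T cell EFF, and its pooled level in NKT was 8.77 CPM. Its 4.23-fold range was the widest among members with 10000 or more UMIs. Ndufaf5 was 16.7 CPM in Stroma and 5.85 in its lowest label. Ndufaf3 went the other way, with 28.1 CPM in T cell EFF and 14.3 in Stroma.

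Complex II, succinate dehydrogenase, links the chain to the TCA cycle and has no mt- subunit. It took 0.0309% to 0.039% of UMIs, lowest in NKT and highest in Myeloid. The membrane anchor Sdhc was at 73.4, 67.5, 68.3 and 69.8 CPM in Stroma and 43.3, 43.8, 34.4 and 33.7 in NKT. The flavoprotein Sdha was among the most even members, at 64.9, 81.1, 88.7 and 79.0 CPM in NKT, its highest label, and 66.4, 64.1, 69.3 and 69.4 in Myeloid, its lowest. These libraries overlapped for Sdha and did not for Sdhc. The iron-sulfur subunit Sdhb was 157 CPM in T cell EFF and 114 in Stroma, and the second anchor Sdhd was 115 CPM in DC and 72.6 in NKT.

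Complex III, the cytochrome bc1 complex, took 0.161% of UMIs in NK cells and 0.183% in T cell EFF. The hinge protein Uqcrh (chr4:116066965-116075071, minus strand) was at 686, 703, 719 and 722 CPM in T cell MEM and 395, 418, 395 and 383 in Stroma. Uqcrb (chr13:66900617-66905378, minus strand), a small structural subunit, was 406 CPM in Stroma and 205 in T cell MEM. The ratio of Uqcrb to Uqcrh was 1.01 in Stroma (0.943 to 1.10 over libraries), 0.693 in Myeloid, 0.654 in DC, 0.442 in T cell EFF and 0.287 in T cell MEM (0.277 to 0.335). The core protein Uqcrc1 differed by 1.18-fold over all 8 labels.

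Complex IV, cytochrome c oxidase, took 0.564% of UMIs in T cell EFF, 0.511% in Stroma and 0.462% in NKT. Its most abundant nuclear subunit, Cox4i1, was even, at 897, 853, 898 and 918 CPM in T cell EFF and 702, 673, 781 and 808 in NKT, with no overlap of the libraries and a pooled ratio of 1.17. Cox5b (chr1:36691449-36693681, plus strand), the zinc-binding subunit, was at 459, 436, 460 and 399 CPM in T cell EFF and 346, 266, 311 and 296 in NKT. Cox5a was 615 CPM in T cell EFF and 378 in Stroma, and Ndufa4, which purifies with complex IV, was 450 CPM in NK cells and 256 in Stroma. Cox7a2l (chr17:83501918-83517330, minus strand), known as a supercomplex factor of complexes III and IV, was at 445, 386, 409 and 481 CPM in T cell MEM. In Myeloid it was at 254, 240, 230 and 250. Whether its product joins these complexes in Balb/c cells was not tested. Cox7a2l made up 57.1% of the UMIs of the Cox7a genes in T cell MEM, 58.0% in NKT and 52.5% in Stroma, against 38.2% in NK cells and 39.6% in Myeloid.

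Complex V, the ATP synthase, took 0.632% of UMIs in T cell EFF, 0.599% in Stroma, 0.525% in Myeloid and 0.519% in NKT. Atp5g2, a gene for the ring subunit c, was at 886, 890, 872 and 862 CPM in Stroma, 747, 726, 612 and 619 in T cell EFF and 548, 503, 444 and 472 in NKT. Of the genes for subunit c, Atp5g2 gave 61.9% of UMIs in Stroma, 57.01% in T cell MEM, 55.9% in T cell EFF and 49.8% in DC. The catalytic subunit Atp5b was 793 CPM in Stroma and 436 in T cell MEM, while the stalk subunits Atp5d (538 against 336 CPM) and Atp5e (551 against 355 CPM) were highest in NK cells and lowest in Stroma. The ratio of Atp5b to Atp5d was 2.36 in Stroma (2.21 to 2.42 over libraries), 1.60 in DC and 0.936 to 1.33 in the other large labels. The catalytic core partner Atp5a1 varied least of all 82 abundant members, from 328 CPM in Stroma to 382 in DC.

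Levels were compared gene by gene in 6 pairs of labels. A gene was counted as higher or lower when the pooled levels, with 1 CPM added, differed by 1.5-fold or more and all 4 libraries had that direction. Against T cell EFF, the summed nuclear share of Stroma differed by -0.07 on the log2 scale (-0.03, -0.07, -0.11 and -0.09), but by +0.12 with TMM factors and +0.09 with DESeq2 size factors, so its direction depended on the scaling. The mt- share of Stroma was higher by 0.17 (0.20, 0.10, 0.18 and 0.04). In Stroma 6 members were higher, against a background of 22.6% of all 15358 genes, and 9 were lower, against 25.8%. The shares of members were thus 6.74% and 10.1%, and the median log2 ratio was -0.017 over members and -0.0043 over all genes tested. The complexes moved little, with log2 ratios of 0.02 for complex I, -0.17 for complex II, -0.12 for complex III, -0.14 for complex IV and -0.08 for complex V.

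The members higher in Stroma were Ndufa4l2 (log2 ratio 1.92, 1.26 to 3 over libraries), Ndufaf2 (1.08, 0.89 to 1.20), Ndufa12 (0.72, 0.60 to 0.79), Ndufa5, Ndufaf5 and Ndufaf6. The lower members were Cox6b2 (-1.74, -2.29 to -1.23), Ndufb7 (-1.05, -1.09 to -0.98), Ndufaf3 (-0.93, -1.08 to -0.74), Atp5h, Cox5a, Ndufa13, Ndufv3, Uqcrfs1 and Uqcrh. TMM factors raised the log2 ratios of this pair by 0.19 and DESeq2 factors by 0.16, or by less for genes near the 1 CPM added. With TMM 14 members were higher and 4 lower, beside 27.5% and 21.8% of all genes, and with DESeq2 12 were higher and 4 lower, beside 26.6% and 22.3%. Cox6b2, Ndufaf3, Ndufb7 and Ndufv3 stayed lower with TMM. Among cells of 5000 to 15000 UMIs, which in Stroma are its shallow end, the nuclear ratio was -0.90 and 63 of the 89 members were lower, beside 25.1% of all genes, and with a limit of 10% mt- UMIs added it was -0.21 and 17 of 89 were lower, beside 21.8% of all genes.

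Myeloid cells had a lower nuclear share than T cell EFF, by -0.18 (-0.12, -0.16, -0.19 and -0.21). This difference came to -0.11 with TMM, -0.042 with DESeq2 factors and -0.34 among cells of 5000 to 15000 UMIs. The mt- share of Myeloid was higher by 0.13 (0.20, 0.05, 0.15 and 0.09), which turned to -0.06 for the median over cells. Complex V differed most, by -0.27, and complex II least, by 0.01. The median was -0.16 over members and -0.064 over all genes. Among members 2 were higher (background 15.8%), the oxidase isoforms Cox4i2 and Cox7a1, and 1 was lower (background 15.4%), the complex I assembly factor Ndufaf7 with -0.79. Among cells of 5000 to 15000 UMIs 13 members were lower, beside 24.3% of all genes. The ribosomal protein genes, which took 15.6% of UMIs in Myeloid and 22.5% in T cell EFF, differed by -0.53 in the same pair, and without them the nuclear difference was -0.31. Their part in the result was not tested further.

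NK cells had a lower nuclear share than T cell EFF, by -0.11 (-0.08, -0.07, -0.14 and -0.12), which came to -0.0004 with TMM. No member was higher (background 5.67%) and none lower (background 12.1%), with a median of -0.11 over members and -0.066 over all genes. T cell MEM, a memory label, had a lower share than T cell EFF, the effector label, by -0.17 (-0.21, -0.19, -0.18 and -0.15), and 10 of the 89 members had a log2 ratio above 0, against 48.5% of all genes. The median was -0.21 over members and -0.010 over all genes. Complex II (-0.31) and the assembly factors (-0.26) differed most and complex III (-0.05) least. No member was higher (background 5.52%), and 3 were lower (background 10.3%). These were Ndufaf6 (-0.83), Ndufaf2 (-0.68) and Ndufab1 (-0.67), the acyl carrier protein, at 103 against 165 CPM. None of them passed among cells of 5000 to 15000 UMIs, where 4.27% of all genes were lower, or at 2-fold.

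ILC and NK cells, labels that share NK cell markers, had nearly equal nuclear shares, with a log2 ratio of 0.02 (0.01, 0.03, 0.02 and 0.03) that turned to -0.04 with TMM. Only Cox6a2 was higher (0.75, background 6.69%), and no member was lower (background 0.625%). It did not pass without M5 or among cells of 5000 to 15000 UMIs, and without M2 3 members were higher. DC had a nuclear share 0.10 above Myeloid (0.01, 0.13, 0.13 and 0.13), with complex V at 0.14. There 2 members were higher (background 7.38%), Cox6a2 with 4.34 (3.57 to 5.18) and Ndufa6 with 0.63 (0.36 to 0.74), and 1 was lower (background 12.9%), Cox4i2 with -1.29. Among cells of 5000 to 15000 UMIs 9 of 89 members were higher and 0 lower, beside 12.3% and 13.4% of all genes, and Ndufa6 was not among them. Without M2 Cox6a2 alone was higher, and without M1 4 members were. The median was 0.058 over members and -0.020 over all genes, and between ILC and NK cells it was 0.044 and 0.022.

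**Figure D3:**
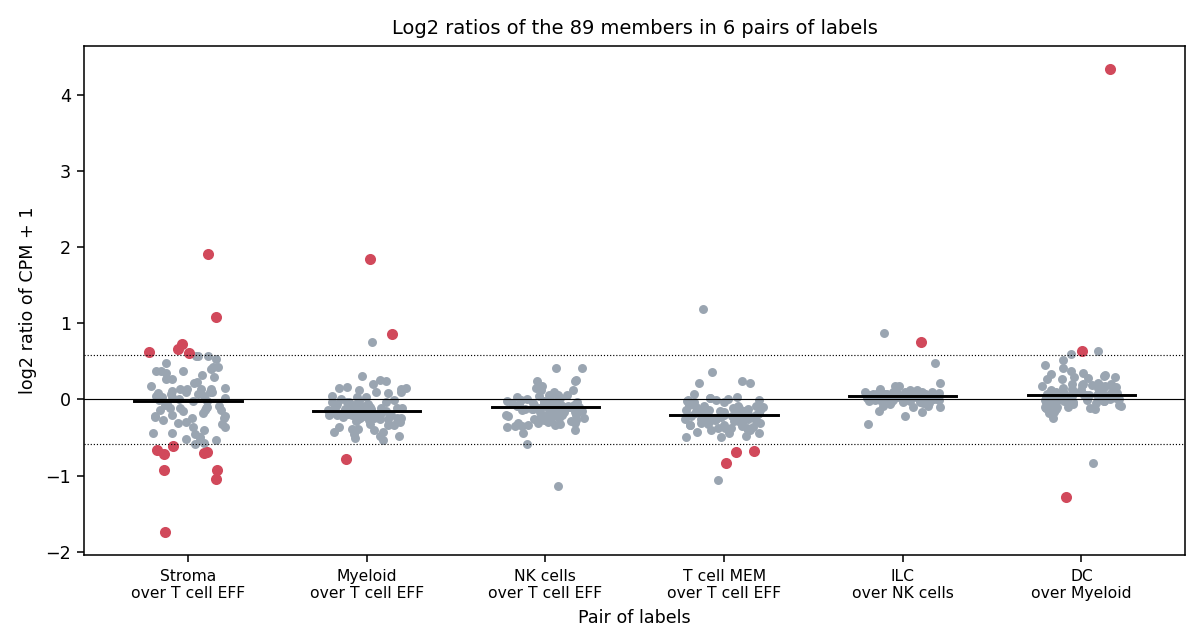
Log2 ratio of CPM + 1 (vertical) of each of the 89 members in the 6 pairs of labels (horizontal), pooled over libraries, with a line at the median of members, dotted lines at 1.5-fold, and red points for members past 1.5-fold with 1 direction in all 4 libraries. Most members lie within the dotted lines, and Cox6a2 in DC over Myeloid is the farthest point at 4.34. Scaling by TMM would lift the points of Stroma over T cell EFF by 0.19, or by less for genes near 1 CPM.

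The isoform genes held the sharpest contrasts. Cox6a2 (chr7:128205435-128206387, minus strand) encodes the form of oxidase subunit VIa known from heart and skeletal muscle, and Cox6a1 (chr5:115345642-115348981, minus strand) the form found in most tissues. Cox6a2 was at 90.4, 108, 127 and 87.9 CPM in DC and made up 33.4% of the Cox6a UMIs there, against 0.185% to 3.77% in the other large labels. With 2000 UMIs drawn from every cell, 12.99% of DC carried a Cox6a2 UMI (10.3 to 16.1, an exact binomial interval of 95% for counting error alone, with 17 shallower cells left out), and 17.1% did without thinning. In the other large labels the share was 0.525% or less, and in NKT it was 0 of 713 cells, which by a limit of 3 counts, not the exact interval, allows a share of up to 0.421%. Of the 3 skeletal muscle markers, Ckm was 3.43 CPM in DC and 22.3 in NK cells, its highest label, Acta1 was highest in DC at 0.735 CPM (6 UMIs), against 0 to 0.337 in the other large labels, and Myh4 was at 0 in DC. The part of muscle RNA in the Cox6a2 level was not tested.

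Within DC, 842 of 843 Cox6a2 UMIs lay in 101 cells with UMIs of both Siglech and Ccr9, markers of plasmacytoid dendritic cells. This split was chosen after values were seen. Of these cells 94 (93.1%, interval 86.2 to 97.2) carried Cox6a2, at 728 CPM pooled and 741, 562, 842 and 968 CPM by library, against 1 of the other 455 DC. Cox6a1 was 152 CPM in the Siglech and Ccr9 cells and 216 in the other DC, and Cox6a2 gave 82.7% of their Cox6a UMIs (82.8%, 78.9%, 84.6% and 86.4%). The summed nuclear share was 1.82% against 1.86% in the other DC, but in M6 it was 1.93% against 1.79%, while the mt- share was 6.93% against 4.28% and was higher in all 4 libraries.

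The same marker pair picked out Cox6a2 under other labels. All 169 cells with Siglech and Ccr9 had Cox6a2 at 398 CPM against 2.22 in the other 33792 cells, and 150 of them carried it. It was found in 15 of 18 such cells labelled Myeloid, 15 of 21 labelled ILC, 6 of 7 labelled T cell MEM and 11 of 11 labelled T cell EFF, without thinning. These cells were deeper than the rest of their label, with medians of 27878 against 7966 UMIs in Myeloid, 16477 against 9756 in ILC, 22492 against 6269 in T cell MEM and 30325 against 10034.5 in T cell EFF. Doublets were not removed, and their part was not tested. Without these cells no member passed the rule between ILC and NK cells. Stroma held 1911 Cox6a2 UMIs in 971 of its deep cells, at 2.76 CPM.

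Ndufa4l2 (chr10:127514967-127517154, plus strand), a paralog of Ndufa4 known as a hypoxia-induced gene, had 6344 of its 6671 UMIs in Stroma, at 12.1, 5.25, 10.2 and 9.03 CPM. It was uneven among cells: 987 of 15687 Stroma cells carried it, the top 100 cells held 61.9% of its UMIs, and 1 cell held 188. A split made after values were seen took 113 Stroma cells that kept a UMI of the keratin genes Krt5 or Krt14 after thinning to 2000 UMIs. Ndufa4l2 was 350 CPM (279, 171, 496 and 459) there, against 7.5 CPM in the others (11.1, 4.69, 4.54 and 6.96). Of these 113 cells 45 carried it, and they held 18.55% of its UMIs in Stroma. In the 1756 Stroma cells that kept a Col3a1 UMI, also a later split, it was 28.4 CPM against 7.33 in the others. After thinning, 1.25% of Stroma cells carried it (1.08 to 1.43, without 45 shallower cells) and 0.281% or less in the other large labels, against 6.29% of Stroma cells without thinning. It gave 3.45% of the UMIs of the Ndufa4 pair in Stroma.

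Cox4i2 (chr2:152754173-152765037, plus strand), the isoform of Cox4 known from lung and hypoxic cells, had 134 of 298 UMIs in Myeloid, at 4.48, 3.79, 2.98 and 3.14 CPM. It gave 0.449% of the Cox4 UMIs there and 0.102% in DC, its next highest label. In 617 Myeloid cells that kept 3 or more UMIs of the macrophage C1q genes after thinning to 2000 UMIs, also a later split, it was 5.56 CPM against 2.48, though not in M6 (3.08 against 3.16). Cox6b2, the testis form of subunit VIb, reached 2.46, 2.94, 2.61 and 6.61 CPM in T cell EFF and 0.240 to 0.554 in Stroma. Cox7a1, the heart and muscle form of subunit VIIa, was 5.07, 6.36, 3.86 and 3.45 CPM in Myeloid. Both remained at 0.903% of cells or less after thinning.

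**Figure D4:**
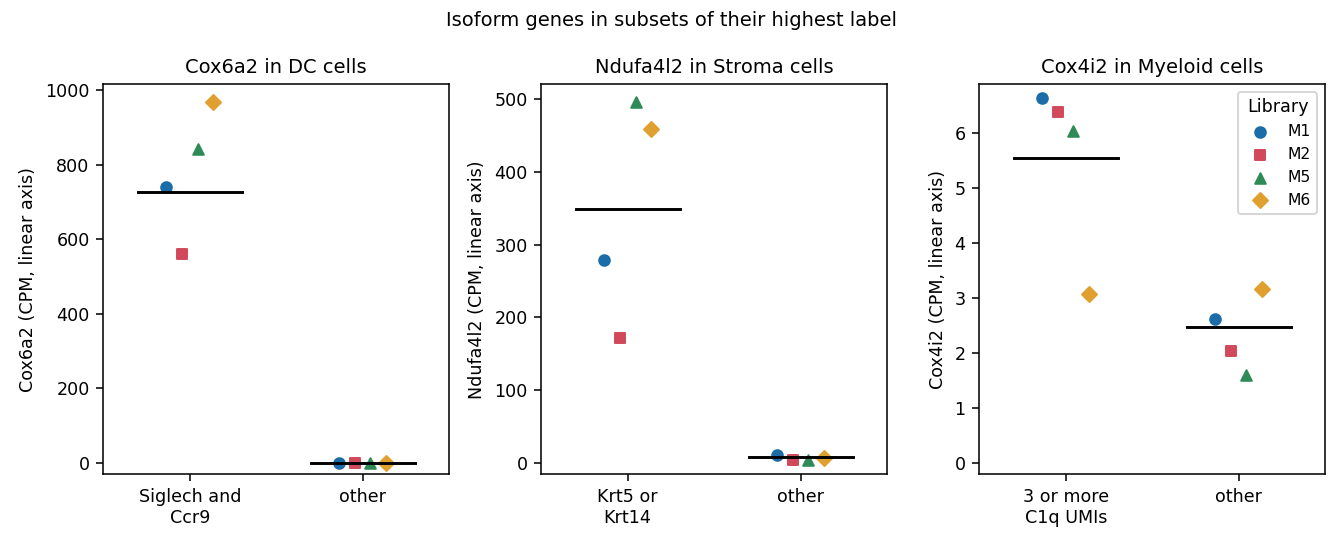
Levels in CPM, on a linear axis, of Cox6a2 in DC cells with Siglech and Ccr9 and other DC, of Ndufa4l2 in Stroma cells with a Krt5 or Krt14 UMI after thinning to 2000 UMIs and other Stroma, and of Cox4i2 in Myeloid cells with 3 or more C1q UMIs after the same thinning and other Myeloid, with a point for each library and a line for the pooled level. The first and second panels separate all libraries, as for Cox6a2 at 728 CPM against 0.143, and in the third M6 lies at 3.08 against 3.16 CPM. The Krt5 or Krt14 cells of the second panel hold 18.55% of the Ndufa4l2 UMIs in Stroma.

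Across the 32 combinations of label and library, the level of each member was correlated with the summed share of the others, as a description over points that share libraries, labels and the scaling to total UMIs. The median over members was 0.513, against 0.039 over the 11948 genes with 1000 or more UMIs, a higher minimum that 87 members met. Of all 89 members 45 exceeded 0.5 and 9 were below 0, and the same counts over all genes are not given here. The highest were Cox5b (0.853), the ATP synthase subunit Atp5f1 (0.847), the complex I subunits Ndufs6 (0.841) and Ndufb3 (0.807) and the oxidase subunit Cox7b (0.809). The lowest were Uqcrh (-0.36), Cox7a2l (-0.25), Sdha (-0.13), Ndufv3 (-0.13) and Uqcrfs1 (-0.12). The genes outside the set with the closest pattern were Nubp1 (0.869), Lsm6 (0.859), Glrx3 (0.853), Fen1 (0.833), Hnrnpab (0.829), Anapc15 (0.807), Psmd6 (0.805) and Exosc9 (0.801). The 31 members with a promoter motif had a median of 0.458 and the 42 with a window and no motif 0.562.

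Cells in cycle, taken as those with a UMI of any of 10 cycling genes after thinning to 2000 UMIs, had the higher nuclear share in most labels. The share was 1.92% against 1.81% in Stroma, a log2 ratio of 0.08 with 0.06 to 0.11 over libraries, and 1.92% against 1.78% in NK cells (0.11, 0.09 to 0.12). In ILC the ratio was 0.09 (0.05 to 0.11), in Myeloid 0.13 (0.04 to 0.23) and in NKT 0.14 (0.03 to 0.16). In DC it was 0.10, with 0.08, 0.10 and 0.01 in M1, M2 and M5 and too few cycling cells in M6, and when thinned to 1000 UMIs it was 0.06 and M1 and M2 turned to -0.02 and -0.01. T cell EFF (0.04, -0.01 to 0.08) and T cell MEM (-0.01, -0.14 to 0.04) did not keep their direction in all libraries. The mt- share of cycling cells was also higher in Myeloid, by 0.24 (0.28, 0.38, 0.19 and 0.11). It was higher by 0.20 in DC, though by -0.13 in M2, and by 0.11 in NKT. In the other large labels the mt- ratio was -0.03 to 0.03. Pooled, cycling cells were also deeper in each of the 8 labels, from medians of 56217 against 33864 UMIs in Stroma to 4541 against 4460 in NKT, but not in M6 of NKT or in M2 of Myeloid and T cell MEM, and the part of depth was not tested.

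Between single cells of a label in a library, the nuclear share varied beyond counting error by 17.5% to 27% of its mean in ILC, T cell MEM, T cell EFF and NK cells. It varied by 29.8% to 33.5% in Stroma and by 33.9% to 54.5% in Myeloid. The mt- share varied by 62.3% to 139%. To set both against each other without a shared total, the nuclear share was taken of the UMIs outside the mt- genes, in bins of the mt- share. In Stroma it was 1.67% below 2.5% mt- UMIs, 2.00% at 2.5 to 5% and again at 5 to 10%, and 1.38% above 10%. In Myeloid it was 1.48%, 1.84%, 2.07% and 1.55%, and in T cell EFF 1.92%, 2.09%, 2.06% and 1.57%. In all 8 large labels the bin above 10% was lower than the bin at 5 to 10%. The 1869 Stroma cells above 10% had a median of 8215 UMIs, against 53995 at 2.5 to 5%, so low depth went with a high mt- share. Ordered by depth, the nuclear share of all UMIs in Stroma was 0.727% in 1052 cells of 5000 to 10000 UMIs, whose mt- share was 33.5%, and 1.94% in cells above 40000 UMIs, whose mt- share was 4.52%.

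**Figure D5:**
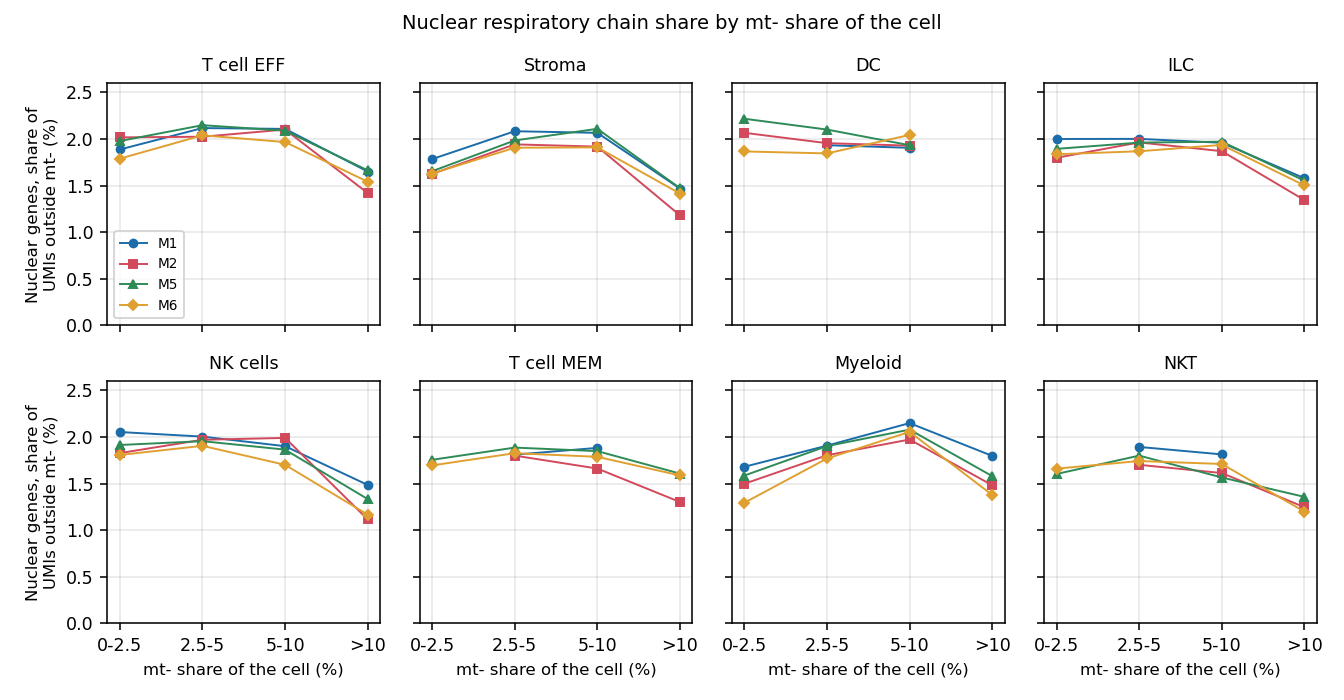
Nuclear share of the UMIs outside the mt- genes, in percent, by the mt- share of the cell in 4 bins, with a panel for each of the 8 large labels and a line for each library, for bins of 20 cells or more. Every point above 10% mt- UMIs lies below the point of its library at 5 to 10%, as in Stroma with 1.38% against 2.00% pooled.

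Other genes of the pathway were counted by the same rule in the 6 pairs, and their counts are to be read against the same shares of all genes, for Stroma and T cell EFF 22.6% higher and 25.8% lower. Of 41 tested assembly factors outside the Nduf names, Stroma had 5 higher and 8 lower than T cell EFF, among them the complex III factor Uqcc2 at 246 against 123 CPM and Uqcc3 at 16.6 against 56.1. Nubpl (0.95) and Sco2 (0.77) followed among the higher and the copper chaperone Cox17 (-1.49) and Coa7 (-1.25) among the lower. The TCA cycle list of 20 genes also held genes next to the cycle, such as Pdk1, Pcx and Mdh1. Of the 20, 5 were higher and 2 lower, led by Idh2, the mitochondrial isocitrate dehydrogenase, at 105 against 21.6 CPM. Pdk1 (1.02) and Suclg2 (1.01) came next, and Ogdh (-1.66) and Mdh1 (-0.87) were lower. Of 18 genes for electron carriers and ubiquinone synthesis 2 were higher, Pdss1 (1.14) and Coq4 (1.03), and 1 lower, Coq8a (-2.68), and of 15 regulators of mitochondrial biogenesis 4 were higher and 1 lower, with Myc at 2.24, Nfe2l2 at 1.49, Ppargc1a at 0.91 and Gabpb1 at -1.23. The median log2 ratio was -0.21 for the assembly factors, 0.14 for the carriers, 0.25 for the whole TCA cycle list and 0.18 for the regulators. In Myeloid against T cell EFF, the regulators Nfe2l2 (2.43), Ppargc1b (1.04) and Esrra (0.76) were higher and Gabpb1, Tfb2m and Tfam were lower, where 15.8% of all genes were higher and 15.4% lower. In the other lists Idh2 (0.77) was higher, and Ecsit (-0.90), Cox20 (-0.74), Coq8a (-0.78), Idh3a (-0.91) and Mdh1 (-0.90) were lower.

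In T cell MEM against T cell EFF no gene of these lists was higher, and 4 assembly factors, 3 carrier genes, 2 TCA cycle genes and 2 regulators were lower, where 5.52% of all genes were higher and 10.3% lower. Cytochrome c1, Cyc1, was 71.1 CPM in T cell MEM and 114 in T cell EFF, and Myc was lower by -1.06. NK cells had Coq8b (0.97) and Tfam (0.60) higher than T cell EFF and Cox17 (-0.96), Coq8a (-1.10) and Gabpb1 (-0.77) lower, and ILC had Coq8a (0.82) and Nfe2l2 (0.78) higher than NK cells. In DC against Myeloid the ATP synthase inhibitor Atpif1 (1.06), Higd2a (0.62) and the fumarase Fh1 (0.78) were higher, and Coq8a (-1.17), Ppargc1b (-0.85) and Gabpb1 (-0.62) were lower.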

How the data were processed

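The authors counted UMIs with Cell Ranger 3.0.2 on mm10 (GRCm38), per the labels and the study's methods, and deposited a table of unnormalized UMI counts, beside which each cell has its total, its library and its cell type. Neither doublet removal nor correction for free RNA is named, and neither was done here. Counts were summed per label and library in Python 3.11.15 (pandas 2.3.3, scipy 1.17.1) and scaled to all UMIs of the label. Log2 ratios used a pseudocount of 1 CPM, genes with under 100 UMIs were left out, and labels needed 500 cells. Cells were thinned without replacement to 2000 UMIs for shares of cells. TMM (edgeR 4.0.16) and DESeq2 1.42.0 factors served only as other scalings. The scripts were tested on simulated data. Gene positions are from GENCODE and promoters from RefSeq. Depth ran from 158337797 to 315577167 UMIs per library, and intervals cover counting error only.

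Treatments were not compared, since the 4 library labels could not be matched to samples. Members were named by rule: the isoform genes, the widest, narrowest and most abundant subunit of each complex, the 5 lowest and 5 highest correlations, and the 3 largest changes each way among those counted in a pair. Other members given with levels, the ratios between members and the splits by marker genes were chosen after their values were seen. The members, lists and pairs were chosen with earlier results of these data known. Alternatives changed the scaling, the fold, the minimum count, the depth and mt- limits, the thinning and the libraries, and left out cells with Siglech and Ccr9 or with Krt5 or Krt14.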

Additional observations from a re-analysis of the deposited data

How the results depend on the processing

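No paired analysis was possible because the replicate numbers of the treatment samples are tied to no library. Cell types were compared within each library, without a test. Values here are log2 ratios in the order nuclear, then mt-, unless said otherwise. The depth window with the limit on mt- UMIs and the omission of cells by shared barcode, by Siglech and Ccr9 or by Krt5 or Krt14 were chosen after seeing the data. Taking structural subunits alone, or leaving out the 10 most abundant members, moved no nuclear ratio past the spread over libraries. Depth limits the rare isoforms, and depth and mt- share differ between the labels. The cause of the changes was not tested.

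For Stroma over T cell EFF the nuclear ratio was -0.018 without ribosomal genes, 0.12 with TMM, 0.090 with DESeq2, -0.90 in cells of 5000 to 15000 UMIs, -0.21 in those with 10% mt- UMIs or less and -0.017 as the median of members. The mt- ratio was 0.26 for the median over cells, 0.22 without ribosomal genes, 0.36 with TMM, 0.33 with DESeq2, 2.38 in the depth window and 0.41 with the mt- limit added. For Myeloid over T cell EFF the nuclear ratio was -0.27 for the median over cells, -0.31 without ribosomal genes, -0.11 with TMM, -0.042 with DESeq2, -0.23 without the deepest 5% of cells, -0.34 in the window and -0.31 with the limit. The mt- ratio was -0.058 for the median over cells, 0.0044 without ribosomal genes, 0.20 with TMM, 0.27 with DESeq2, -0.026 without cells over 10% mt- UMIs, 0.38 in the window and -0.14 with the limit. For NK cells over T cell EFF the nuclear ratio was -0.00043 with TMM, -0.030 with DESeq2 and -0.062 with window and limit, and the mt- ratio was -0.14 for the median over cells, 0.014 with TMM, -0.016 with DESeq2, -0.18 without cells over 10%, -0.049 without the deepest cells and -0.016 in the window.

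For T cell MEM over T cell EFF the nuclear ratio was -0.098 in the window, -0.11 with the limit and -0.21 as the median of members, and the mt- ratio was 0.049 for the median over cells, -0.047 with the mt- genes out of the denominator, -0.056 without ribosomal genes, 0.014 without cells over 10%, 0.060 with window and limit, -0.046 without cells with Siglech and Ccr9 and -0.049 without cells with Krt5 or Krt14. For ILC over NK cells the nuclear ratio was 0.057 for the median over cells, -0.035 with TMM, -0.017 with DESeq2, -0.0019 without cells over 10%, 0.042 without the deepest cells, 0.030 in the window, 0.0054 with the limit and 0.044 as the median of members, and the mt- ratio was -0.020 for the median over cells, 0.040 without cells over 10% and -0.017 with window and limit. For DC over Myeloid the nuclear ratio was 0.25 for the median over cells, 0.14 without ribosomal genes, 0.22 in the window and 0.19 with the limit, and the mt- ratio was 0.047 for the median over cells and 0.21 with window and limit. TMM shifted every ratio by 0.19 for Stroma, 0.072 for Myeloid and 0.11 for NK cells over T cell EFF.

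Without each library in turn, the nuclear ratios ranged from -0.10 to -0.051 (Stroma), -0.20 to -0.16 (Myeloid), -0.12 to -0.094 (NK cells), -0.18 to -0.16 (T cell MEM), 0.0203 to 0.0228 (ILC) and 0.084 to 0.13 (DC), and the mt- ratios from 0.14 to 0.19, 0.11 to 0.15, -0.10 to -0.089, -0.053 to -0.034, -0.13 to -0.078 and -0.23 to -0.14 in the same order.

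Counts of members are followed in brackets by the share of all genes at the same setting. Higher in Stroma were 2 at 2-fold (14.1%), 14 with TMM (27.5%), 12 with DESeq2 (26.6%) and 1 in the window (30.7%), and lower 2 (16.5%), 4 (21.8%), 4 (22.3%) and 63 (25.1%), or 17 with the limit (21.8%). Higher in Myeloid were 1 at 2-fold (10.4%) and 1 among genes with 1000 UMIs or more (16.3%), and lower 0 at 2-fold (6.08%), 13 in the window (24.3%) and 11 with the limit (25.1%). In NK cells 1 was higher in the window and with the limit (7.01% and 7.03%), and 1 lower without the rule on direction (13.7%). In T cell MEM 1 was higher without that rule (7.65%), and 0 were lower at 2-fold (5.17%), in the window (4.27%) and with the limit (4.12%). In ILC 2 were higher without that rule (7.42%) and 0 at 2-fold (3.35%), in the window (3.75%), with the limit (3.86%) and without cells with Siglech and Ccr9 (6.61%), and 1 was lower in the window (0.723%) and with the limit (0.645%). In DC 1 was higher at 2-fold (3.87%), 4 without that rule (9.20%), 9 in the window (12.3%) and 7 with the limit (11.8%), and 2 were lower without that rule (14%) and without cells with Siglech and Ccr9 (15.5%), and 0 with 1000 UMIs or more (13.8%), in the window (13.4%) and with the limit (13%). Without single libraries the counts were 5 to 9 higher and 9 to 11 lower in Stroma, 2 to 3 and 1 to 1 in Myeloid, 0 to 0 and 0 to 1 in NK cells (1 without M2), 0 to 1 (1 without M6) and 3 to 3 in T cell MEM, 0 to 3 (3 without M2, 0 without M5) and 0 to 0 in ILC, and 1 to 4 (4 without M1, 1 without M2) and 1 to 2 (2 without M6) in DC.

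Shares of cells with a UMI, thinned to 1000 UMIs, to 4000 and not thinned, were 0.485%, 1.41% and 3.66% for Cox4i2 in Myeloid, 9.71%, 17.3% and 17.1% for Cox6a2 in DC and 0.771%, 1.73% and 6.29% for Ndufa4l2 in Stroma. Cox6b2 in T cell EFF gave 0.385% at 1000 and 4.21% not thinned, and Cox7a1 in Myeloid 1.89% at 4000 and 5.34% not thinned. Without single libraries they were 0.704% to 0.973% (Cox4i2), 12.5% to 13.7% (Cox6a2), 0.694% to 0.981% (Cox6b2), 0.805% to 0.973% (Cox7a1) and 1.06% to 1.39% (Ndufa4l2). The cycling ratio was 0.060 in Stroma with 2 or more cycling UMIs, 0.084 at 4000 and 0.14 with 2 or more in NK cells, 0.18 at 1000, 0.17 at 4000 and 0.32 with 2 or more in NKT, and 0.062 at 1000, 0.11 at 4000 and 0.096 with 2 or more in DC. Without single libraries it ranged from 0.073 to 0.087 in Stroma, 0.079 to 0.097 in ILC, 0.11 to 0.12 in NK cells, 0.025 to 0.054 in T cell EFF, 0.073 to 0.15 in Myeloid, -0.053 to 0.0081 in T cell MEM, 0.13 to 0.17 in NKT and 0.067 to 0.12 in DC.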
